A study of Mus musculus with 18 samples.

Results

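The hypoxia and glycolysis genes described here were 9 of the 20275 genes in the deposited mRNA count matrix: Slc2a1, Ldha, Pgk1, Pdk1, Bnip3, Ankrd37, Egln3, P4ha1 and Adm. They were taken by name, and their levels were read across the cell cluster codes that the authors gave to every cell of fetal, neonatal and adult mouse bone marrow, with cartilage set against other stroma and against hematopoietic progenitor (HP) cells. The study profiled bone marrow of C57B6/J mice by droplet single-cell RNA sequencing at embryonic day 16.5 (E16.5), E18.5, postnatal day 0 (P0) and in adults. At each stage the CD45-Ter119- stroma and the Lineage-Kit+ HPs were sorted and sequenced as separate libraries, 9 mRNA libraries in all: 1 stromal library for each stage, 2 HP libraries at E16.5 and 1 at each other stage. The labels give no transgene, deletion or treatment for any group.

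Each library pooled several mice, so a stage and compartment held no animal replicates, and stages stood in as replicates in the tests below. Stroma was freed by warm digestion with collagenase and DNase, whereas HP cells were not digested, so handling and compartment cannot be told apart. Adult cells came from tibias, femurs, pelvic bones and spines, with lysis of red blood cells. Fetal cells came from the skeleton without the head, with no lysis step. The adult stage thus cannot be told apart from the bones and handling used. The 9 libraries held 56201 cells with 13974733 to 194892476 unique molecular identifiers (UMIs, counted RNA molecules) each and a median of 6747 to 23291.5 UMIs per cell. By the letters of their codes, 17945 stromal cells were cartilage (4130 in the E16.5 library, 4451 in E18.5, 8270 in P0 and 1094 in the adult one) and 17274 were other stroma. The HP libraries held 20982 cells. These include an adult code named Stroma, with 56 cells and 3.14% of its UMIs in cartilage markers. They also include P0 code Mast4, with 274 cells, whose leading genes were Col3a1, Col2a1 and Col1a1. The cartilage sums carried the cartilage markers fixed for the check at 6.07% to 12.6% of their UMIs, against 0.461% to 2.13% in other stroma and at most 0.00410% in HP cells, and Col2a1, the main collagen of cartilage, was at 20451 to 57774 CPM (the count of a gene scaled to a fixed total of UMIs for a group of cells) against 1411 to 6059 and 0.143 to 11.8 CPM. Ptprc, which encodes the pan-blood surface protein CD45, was at 79.3 to 160 CPM in HP cells and at no more than 0.0605 CPM in either stromal group. The codes had been clustered by the authors on the expression of the same cells, so differences between classes of codes are not independent of the genes tested.

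Some libraries shared cell barcodes, the sequences that label single droplets. The first E16.5 HP library, with 560 cells, shared 330 barcodes (58.9%) with the adult HP library and 153 (27.3%) with the P0 HP library, and the E18.5 HP library shared 375 of its barcodes (10.8%) with the adult HP library. Between the stromal libraries and between stroma and HPs, fewer than 1% of barcodes were shared by any pair. Leaving out every cell whose barcode occurred in 2 or more libraries changed no member's call in any of the 3 main comparisons. In the first E16.5 HP library it moved Bnip3 from 13.8 to 17.6 CPM, P4ha1 from 27.3 to 34.5 CPM and Slc2a1 from 25.1 to 24.0 CPM. Ankrd37 moved there from 9.45 to 13.9 CPM, on 41 UMIs, and Adm from 0.0716 to 0 CPM.

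Cells sense oxygen mainly through hydroxylases that mark the alpha subunits of the hypoxia-inducible factors (HIFs) for destruction while oxygen is present; when oxygen is short the subunits persist, pair with ARNT and bind short DNA motifs near their target genes. Those targets raise glucose uptake and glycolysis, keep pyruvate out of the mitochondria, trim mitochondria, modify collagen and signal to blood vessels. Growth plate cartilage has no blood vessels and is a classic tissue in which HIF activity is required, and collagen-making cells also need prolyl hydroxylases that depend on oxygen.

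The core HIF motif reads ACGTG or GCGTG. Of 32851 RefSeq mouse promoter windows of 250 bases before a transcript start (assembly GRCm38.p6, the NCBI name of mm10, the build the authors used), 16.6% held ACGTG, 28.2% held GCGTG and 38.6% held either, reading both strands. The windows of 4 members whose levels turned the comparisons below are printed 5′ to 3′ along the gene, with the motif letters in capitals on whichever strand they were read, so that CACGT and CACGC are the motifs of the opposite strand. They show the letters only, and a match is not evidence of binding.
Slc2a1, chr4:119108495-119108744, plus strand: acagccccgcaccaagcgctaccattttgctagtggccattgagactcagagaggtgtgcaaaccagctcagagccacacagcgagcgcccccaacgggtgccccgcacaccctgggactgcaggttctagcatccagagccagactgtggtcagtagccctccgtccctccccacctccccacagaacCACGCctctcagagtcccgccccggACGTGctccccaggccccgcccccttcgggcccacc
Pgk1, chrX:106186850-106187099, plus strand: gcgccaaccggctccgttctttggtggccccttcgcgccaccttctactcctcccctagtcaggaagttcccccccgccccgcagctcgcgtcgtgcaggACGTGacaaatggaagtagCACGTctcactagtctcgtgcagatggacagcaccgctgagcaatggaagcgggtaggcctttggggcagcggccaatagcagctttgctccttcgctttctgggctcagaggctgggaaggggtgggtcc
Bnip3, chr7:138909507-138909756, minus strand: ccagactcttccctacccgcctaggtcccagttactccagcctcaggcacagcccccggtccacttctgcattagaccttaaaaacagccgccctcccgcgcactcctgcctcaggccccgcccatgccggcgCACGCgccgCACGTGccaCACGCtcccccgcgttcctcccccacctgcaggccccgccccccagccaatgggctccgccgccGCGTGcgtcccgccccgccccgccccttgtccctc
Adm, chr7:110627407-110627656, plus strand: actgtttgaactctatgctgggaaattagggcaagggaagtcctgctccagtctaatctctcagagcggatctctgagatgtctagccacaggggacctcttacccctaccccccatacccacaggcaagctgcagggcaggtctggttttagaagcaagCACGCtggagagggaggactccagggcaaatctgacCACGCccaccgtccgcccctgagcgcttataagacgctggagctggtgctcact
The Slc2a1 window held ACGTG starting 36 bases and GCGTG 61 bases before the start. The Pgk1 window held ACGTG at 150 and 131 bases. In the Bnip3 window ACGTG was read on both strands of a single palindrome, at 108 and 107 bases, and GCGTG lay at 117, 99 and 35 bases. The Adm window held GCGTG at 90 and 54 bases and no ACGTG.

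The first comparison asked which members differed between cartilage and the other stromal cells of the same library. Cartilage held more RNA of the glucose transporter gene Slc2a1, of the glycolytic enzyme genes Ldha and Pgk1, of Pdk1, Bnip3 and the collagen hydroxylase gene P4ha1, and less of the vessel peptide gene Adm. Of the 9 members, 6 were called higher and 1 lower, where 20.9% of the 15778 genes tested were called higher and 19.1% lower (edgeR's quasi-likelihood test with Benjamini-Hochberg adjustment, threshold 0.05, on 8 sums of UMIs, each library split in cartilage and other stroma). Ankrd37 and Egln3 were not called. The median log2 fold change was 1.20 over the members and 0.05 over all genes tested. By plain CPM, Slc2a1, Ldha, Pgk1 and P4ha1 were higher in all 4 cartilage sums than in any sum of other stroma, Ankrd37, Egln3 and Adm were lower in all 4, and the sums of Pdk1 and Bnip3 overlapped. How many of all genes separate in this way was not counted. Here and below, such separation is a description and is not read as a trait of the members. Against HP cells, cartilage had 6 members higher and 1 lower (30.6% and 28.8% of 15988 genes), the higher ones being Slc2a1, Pgk1, Pdk1, Bnip3, P4ha1 and Adm and the lower one Egln3. Other stroma against HP cells gave 3 members higher, Bnip3, P4ha1 and Adm, and none lower (29.2% and 25.3% of 16367 genes). On the lower side edgeR and DESeq2 both called 0 members. At an unadjusted edgeR p under 0.05, 0 members were lower, beside 4760 of the 16367 genes. Ldha was called lower in the fit without the stage block (-1.08, edgeR adjusted p = 0.043). The 3 comparisons share sums and are not separate evidence.

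**Figure D1:**
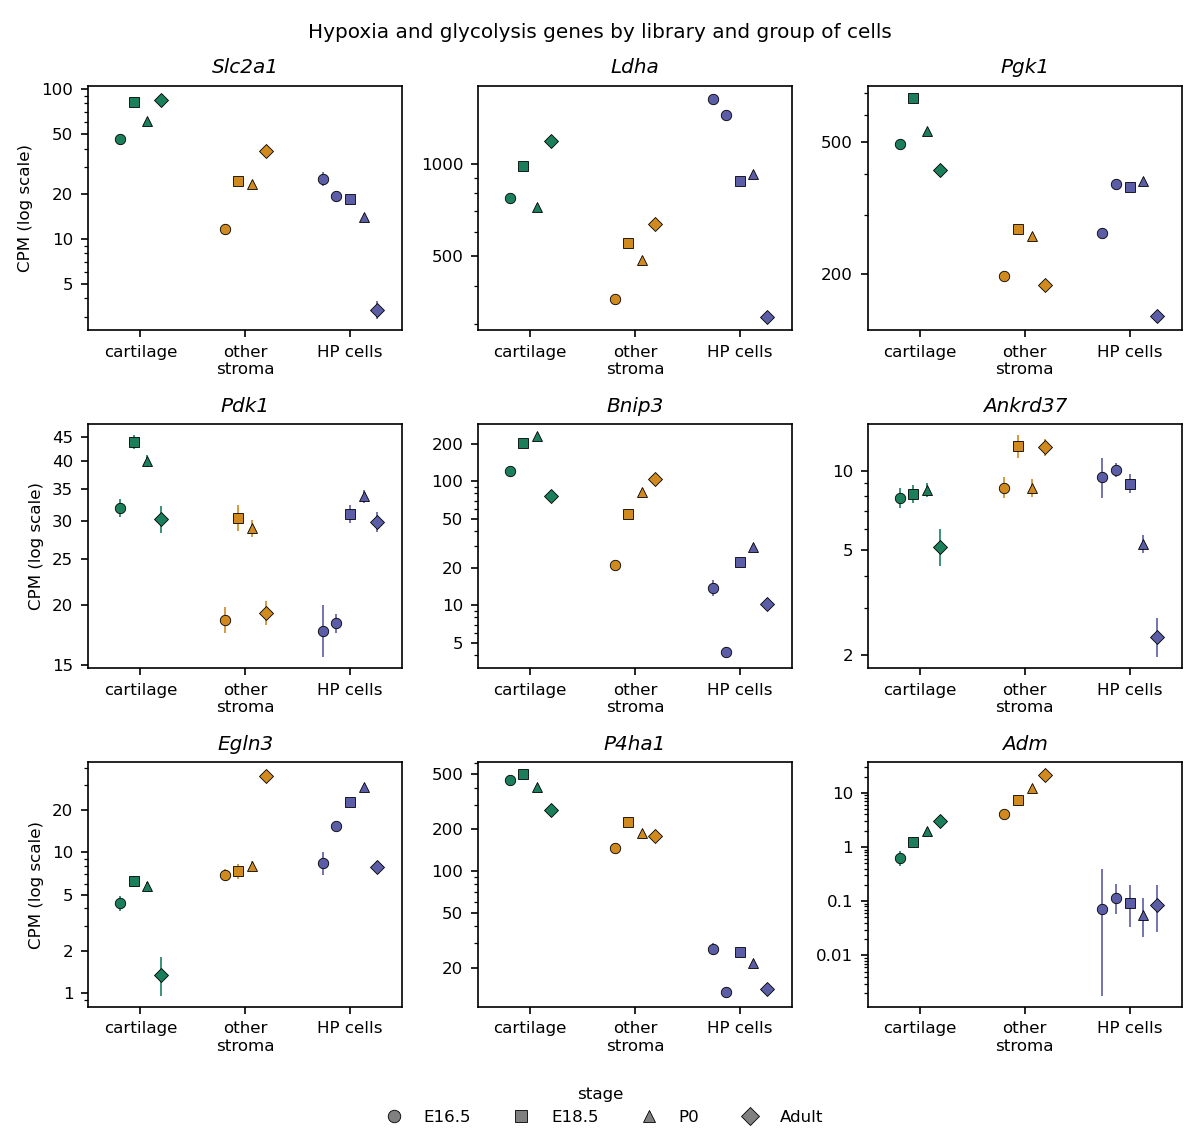
Level of each of the 9 genes in CPM on a log axis, 1 point for each library and group of cells, with bars for the exact 95% Poisson interval. The cartilage points of Slc2a1, Pgk1 and P4ha1 lie above all points of the other groups, and those of Adm lie between other stroma and HP cells. Slc2a1, Ldha, Pgk1, Ankrd37 and Egln3 have their lowest HP point in the adult library.

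**Figure D2:**
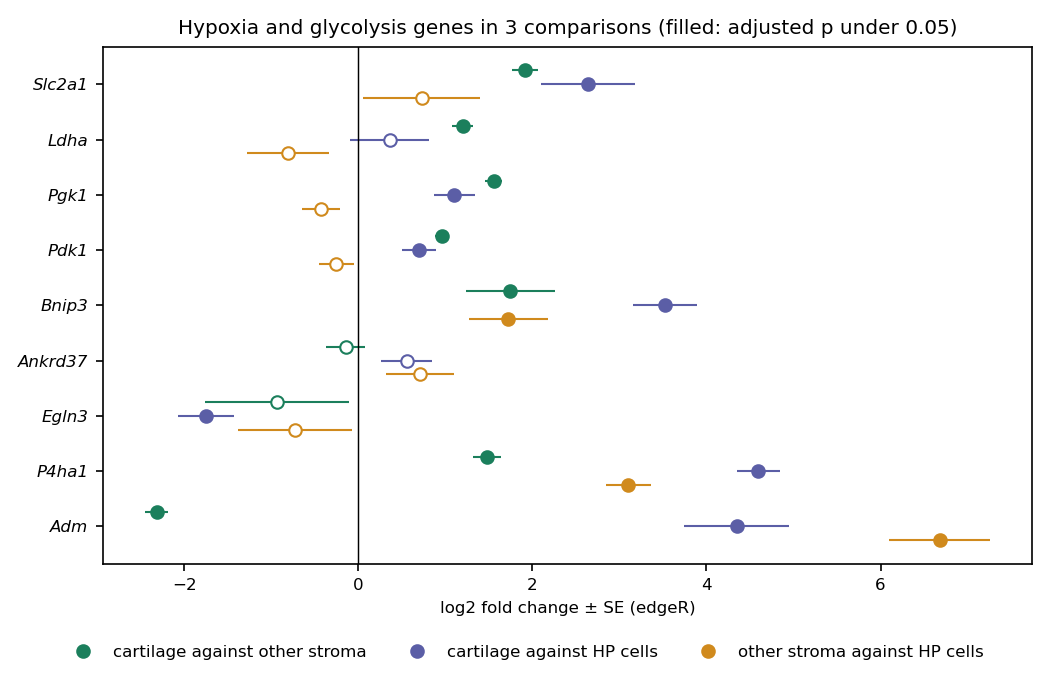
Log2 fold change of each gene in the 3 comparisons, with the standard error derived from the F statistic as a bar and filled points where the edgeR adjusted p was under 0.05. P4ha1 is at 4.60 between cartilage and HP cells and at 3.10 between other stroma and HP cells, and Adm is at -2.32 between cartilage and other stroma.

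Slc2a1 encodes GLUT1, the basal glucose transporter (chr4:119108745-119137330). The cartilage sums stood at 46.0 CPM in the E16.5 library, 81.8 CPM in the E18.5 library, 60.8 CPM in the P0 library and 84.8 CPM in the adult library. In other stroma it stood at 11.6, 24.2, 23.3 and 38.6 CPM in the same order. In HP cells it stood at 25.1 and 19.3 CPM in the E16.5 libraries, 18.3 CPM at E18.5, 14.0 CPM at P0 and 3.36 CPM in adults. Every cartilage sum was thus above every other sum, the lowest level of HP cells was adult, and other stroma and HP cells overlapped. Adult other stroma came to 23.8 CPM without fibroblast code F9, whose paired name in the study's lists is Osteochondro. The log2 fold change was 1.92 ± 0.15 (SE, here and below derived from the F statistic of the test) between cartilage and other stroma (edgeR adjusted p = 0.0013). It was 2.64 ± 0.54 between cartilage and HP cells (edgeR adjusted p = 0.0049). With 1 library left out at a time, the value against HP cells ran from 2.02 to 3.25. Between other stroma and HP cells it was 0.73 ± 0.67 and was not called (edgeR adjusted p = 0.39).

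Pgk1 encodes phosphoglycerate kinase, an ATP-forming step of glycolysis (chrX:106187100-106203699). In cartilage it stood at 492 CPM at E16.5, 675 CPM at E18.5, 538 CPM at P0 and 411 CPM in adults, and in other stroma at 198, 273, 261 and 186 CPM. In HP cells it stood at 266 and 373 CPM at E16.5, 366 CPM at E18.5, 380.0 CPM at P0 and 149.6 CPM in adults. Cartilage did not overlap either group, and the adult library was the lowest within each of the 3 groups. The log2 fold change was 1.56 ± 0.10 against other stroma (edgeR adjusted p = 0.00096) and 1.11 ± 0.23 against HP cells (edgeR adjusted p = 0.0054).

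Ldha encodes the lactate dehydrogenase subunit that favours making lactate from pyruvate (chr7:46842274-46855627). In cartilage it stood at 775 CPM at E16.5, 982 CPM at E18.5, 720.2 CPM at P0 and 1184 CPM in adults, and in other stroma at 362, 551, 485 and 636 CPM. In HP cells it stood at 1623 and 1435 CPM at E16.5, 880.1 CPM at E18.5, 922 CPM at P0 and 317 CPM in adults. Cartilage exceeded other stroma in every library, whereas the HP range spanned both stromal groups, with the E16.5 libraries at its top and the adult library at its bottom. The HP sums differed in make-up, with mast cells, the lineage richest in Ldha, at 46.2% and 38.0% of cells in the E16.5 libraries and at 4.66% to 8.60% in the others. Without mast cells the E16.5 libraries had 957 and 877 CPM of Ldha, against 823 CPM at E18.5, 879.5 CPM at P0 and 310.2 CPM in adults. The log2 fold change was 1.20 ± 0.12 against other stroma (edgeR adjusted p = 0.0022), and 0.36 ± 0.45 against HP cells, which was not called (edgeR adjusted p = 0.52). The sign of the HP value rested on the adult libraries, since it was -0.15 without the adult stroma and -0.15 without the adult HP library.

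Pdk1 encodes a pyruvate dehydrogenase kinase, which holds back entry of pyruvate into the mitochondrial cycle (chr2:71873215-71903858). Cartilage had 31.9, 43.8, 40.1 and 30.2 CPM from E16.5 to adult, and in other stroma at 18.6, 30.4, 28.9 and 19.2 CPM. HP cells had 17.7 and 18.3 CPM at E16.5, 31.0 CPM at E18.5, 33.8 CPM at P0 and 29.9 CPM in adults. The groups overlapped, with adult cartilage just under E18.5 other stroma, yet cartilage was the higher sum within each of the 4 stromal libraries. It differed by a log2 fold change of 0.96 ± 0.08 against other stroma (edgeR adjusted p = 0.0015) and 0.69 ± 0.20 against HP cells (edgeR adjusted p = 0.018). The call against HP cells was lost without the E16.5, E18.5 or P0 stroma and without the E18.5 or P0 HPs, with edgeR adjusted p of 0.055 to 0.092, and with library totals in place of TMM (0.076).

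Bnip3 encodes an outer mitochondrial membrane protein that marks mitochondria for removal (chr7:138890836-138909506). In cartilage it stood at 122 CPM at E16.5, 203 CPM at E18.5, 232 CPM at P0 and 75.6 CPM in adults, and in other stroma at 21.3, 55.0, 82.6 and 104 CPM. In HP cells it stood at 13.8 and 4.22 CPM at E16.5, 22.4 CPM at E18.5, 29.5 CPM at P0 and 10.3 CPM in adults. The groups of stroma overlapped in adults, where cartilage was lower, though without fibroblast code F9 the adult ratio of cartilage to other stroma went from 0.729 to 1.05 (0.998 to 1.11), while all cartilage sums lay above all HP sums. The log2 fold change was 1.75 ± 0.51 against other stroma (edgeR adjusted p = 0.046), 3.52 ± 0.36 against HP cells (edgeR adjusted p = 0.00022) and 1.73 ± 0.45 between other stroma and HP cells (edgeR adjusted p = 0.018). The call against other stroma was the least stable of the 6: it was lost in 7 of 19 alternatives, among them the fit without the library block (1.64, edgeR adjusted p = 0.052) and those without the E16.5, E18.5 or P0 stroma (1.32 to 1.71, edgeR adjusted p of 0.15 to 0.17). Over all 19 alternatives the log2 fold change ran from 1.32 to 2.39.

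P4ha1 encodes the catalytic subunit of collagen prolyl hydroxylase, which acts in the endoplasmic reticulum and needs oxygen (chr10:59323197-59373304). In cartilage it stood at 455 CPM at E16.5, 500.2 CPM at E18.5, 405 CPM at P0 and 275 CPM in adults, and in other stroma at 146, 227, 187 and 179.7 CPM. In HP cells it stood at 27.3 and 13.4 CPM at E16.5, 26.0 CPM at E18.5, 21.6 CPM at P0 and 14.0 CPM in adults. The 3 groups did not overlap, and the order was cartilage, other stroma, HP cells. The log2 fold change was 1.48 ± 0.16 between cartilage and other stroma (edgeR adjusted p = 0.0029), 4.60 ± 0.25 between cartilage and HP cells (edgeR adjusted p = 1.8e-05) and 3.10 ± 0.26 between other stroma and HP cells (edgeR adjusted p = 0.00018).

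Egln3 encodes PHD3, a HIF prolyl hydroxylase that is itself a HIF target (chr12:54178981-54203874). In cartilage it stood at 4.35 CPM at E16.5, 6.22 CPM at E18.5, 5.73 CPM at P0 and 1.34 CPM in adults, and in other stroma at 6.95, 7.33, 7.98 and 34.9 CPM. In HPs its levels were 8.37 and 15.5 CPM at E16.5, 22.9 CPM at E18.5, 29.4 CPM at P0 and 7.89 CPM in adults. All cartilage sums lay below all sums of both other groups, narrowly so for other stroma except in adults. Its log2 fold change was -1.75 ± 0.32 against HP cells (edgeR adjusted p = 0.0029) and -0.93 ± 0.83 against other stroma, which was not called (edgeR adjusted p = 0.41). The HP call was lost under 4 other definitions of cartilage (-1.18 to -0.84, edgeR adjusted p of 0.051 to 0.32). With adult code F9 alone added to cartilage it was -1.14 (edgeR adjusted p = 0.051). The HP sums were the same under every definition.

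Ankrd37 encodes a small ankyrin repeat protein known as a HIF target (chr8:45996908-46000414). It stood at 7.88, 8.16, 8.46 and 5.11 CPM in cartilage from E16.5 to adult, and at 8.61, 12.3, 8.60 and 12.2 CPM in other stroma. In HPs its levels were 9.45 and 10.1 CPM at E16.5, 8.91 CPM at E18.5, 5.28 CPM at P0 and 2.33 CPM in adults. Cartilage lay below other stroma by narrow margins at E16.5 and P0, and HP cells overlapped both. None of the 3 comparisons called it, with log2 fold changes of -0.14 ± 0.23 (cartilage against other stroma, edgeR adjusted p = 0.65), 0.56 ± 0.29 (cartilage against HP cells, edgeR adjusted p = 0.14) and 0.71 ± 0.39 (other stroma against HP cells, edgeR adjusted p = 0.17).

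Adm encodes adrenomedullin, a secreted peptide that acts on blood vessels (chr7:110627657-110629820). Cartilage had 0.622 CPM of it at E16.5, 1.25 CPM at E18.5, 1.95 CPM at P0 and 3.05 CPM in adults, on 39 to 226 UMIs a sum. In other stroma it stood at 4.00, 7.24, 12.2 and 21.6 CPM, and in HP cells at 0.0716, 0.115, 0.0925, 0.0549 and 0.0845 CPM, on 1 to 11 UMIs a library. Cartilage was below other stroma and above HP cells without overlap, and in both stromal groups the E16.5 sum was the lowest and the adult sum the highest. Its log2 fold change was -2.32 ± 0.13 against other stroma (edgeR adjusted p = 0.00091). Against HP cells it was 4.35 ± 0.60 for cartilage (edgeR adjusted p = 0.00081) and 6.68 ± 0.58 for other stroma (edgeR adjusted p = 0.00022), values that rest on very few HP molecules. Free RNA from the Adm-rich cells of the same library was not measured, so low cartilage values cannot be read as expression by cartilage cells. Adm in cartilage was 14.1% to 17.3% of its level in other stroma, and the summed level of 8 endothelial marker genes was 3.30% to 7.68% of theirs. Codes with the fibroblast letter held much of the Adm of other stroma, F8 with 631 of 1326 UMIs in adults and F3i with 413 of 970 at P0. The study's lists pair adult F8 with the name MSCs-PαS, its Pdgfra+Sca-1+ mesenchymal stem cells. From E16.5 to adult, fibroblast markers were 0.191%, 0.253%, 0.423% and 0.148% of cartilage UMIs. In other stroma they were 0.970%, 2.14%, 2.01% and 3.52%. The shallow codes CF1 and CF2 had the most Adm in cartilage, 5.58 to 7.49 CPM, and without the CF codes the sums were 1.20 CPM at E18.5 and 1.82 CPM at P0.

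The sizes of the stromal fold changes depended on the scaling, and the directions were kept under RLE and library totals. TMM, the scaling used, raised cartilage relative to plain CPM. With library totals in its place, a setting added after the data were seen, the median over all genes went from 0.05 to -0.30, calls went from 3295 higher and 3010 lower (52.3% higher) to 1618 higher and 5335 lower (23.3% higher), and the member folds fell by a like amount, Slc2a1 to 1.57, Pgk1 to 1.20, P4ha1 to 1.13, Ldha to 0.85 and Pdk1 to 0.61, all still called, while Adm went to -2.67 and Bnip3 lost its call (1.40, edgeR adjusted p = 0.083). Immediate-early and heat shock genes, a list of 10 known to respond to tissue digestion, were higher in cartilage too, 8 of 10 by the same test and none lower, with summed levels of 9335 to 15828 CPM in cartilage, 2431 to 7679 CPM in other stroma and 367 to 1303 CPM in HP cells. Cartilage cells also held more molecules, a median of 13996.5 to 27498 UMIs against 10554 to 13459 in other stroma. Their part in the member results was not tested. With cells thinned to 1000 UMIs and shallower cells left out, no member's call changed between cartilage and other stroma. Thinning keeps the expected share of each gene in a cell, so it cannot show the part of depth.

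Within each stromal library, cartilage can be set against other stroma with the stage held fixed, though with 1 library a stage the ratios have no replicate check and stages were not tested against each other. The intervals given for ratios and levels are exact 95% Poisson or binomial intervals and cover counting error only. Slc2a1 was higher in cartilage by 3.98-fold at E16.5, 3.38-fold at E18.5, 2.61-fold at P0 and 2.20-fold in adults. The adult value moved to 3.57 (3.33 to 3.83) when fibroblast code F9 was left out of other stroma. Pgk1 ranged less, with ratios of 2.49, 2.47, 2.06 and 2.22, and so did Ldha with 2.14, 1.78, 1.49 and 1.86 and Pdk1 with 1.72, 1.44, 1.39 and 1.57. These 4 genes of glucose use were therefore higher in cartilage at every stage. The order of stages depended on F9. Without it the adult ratios were 2.86 (2.78 to 2.95) for Pgk1, 2.16 (2.13 to 2.20) for Ldha and 1.85 (1.68 to 2.04) for Pdk1. Each was then the highest of its stages, though for Ldha and Pdk1 the interval overlapped that of E16.5. P4ha1 went from 3.12 at E16.5 through 2.20 and 2.16 to 1.53 in adults, or 1.83 without F9. Adm was nearly level at 0.155, 0.173, 0.160 and 0.141.

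Bnip3, Egln3 and Ankrd37 had their lowest ratios in adults, as did Slc2a1, P4ha1 and Adm. Bnip3 was 5.70-fold higher in cartilage at E16.5, 3.70-fold at E18.5 and 2.81-fold at P0, but its adult ratio was 0.729 (0.695 to 0.765). Egln3 had ratios of 0.626, 0.848 and 0.718 before adulthood and 0.0385 (0.0276 to 0.0525) in adults, and Ankrd37 had ratios of 0.915, 0.662, 0.983 and 0.417. Adult fibroblast code F9, which the study's lists pair with the name Osteochondro and which held 5.50% of its UMIs in cartilage markers, had Bnip3 at 227 CPM, and without it other stroma dropped from 104 to 71.8 CPM and the adult Bnip3 ratio came to 1.05 (0.998 to 1.11). The adult Ankrd37 ratio came to 0.569 (0.471 to 0.685) without F9, an interval that overlaps that of E18.5 (0.583 to 0.751). Adult fibroblast code F10 held 1374 of the 2138 Egln3 UMIs of adult other stroma, and without it the Egln3 ratio came to 0.0887 (0.0631 to 0.121).

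**Figure D3:**
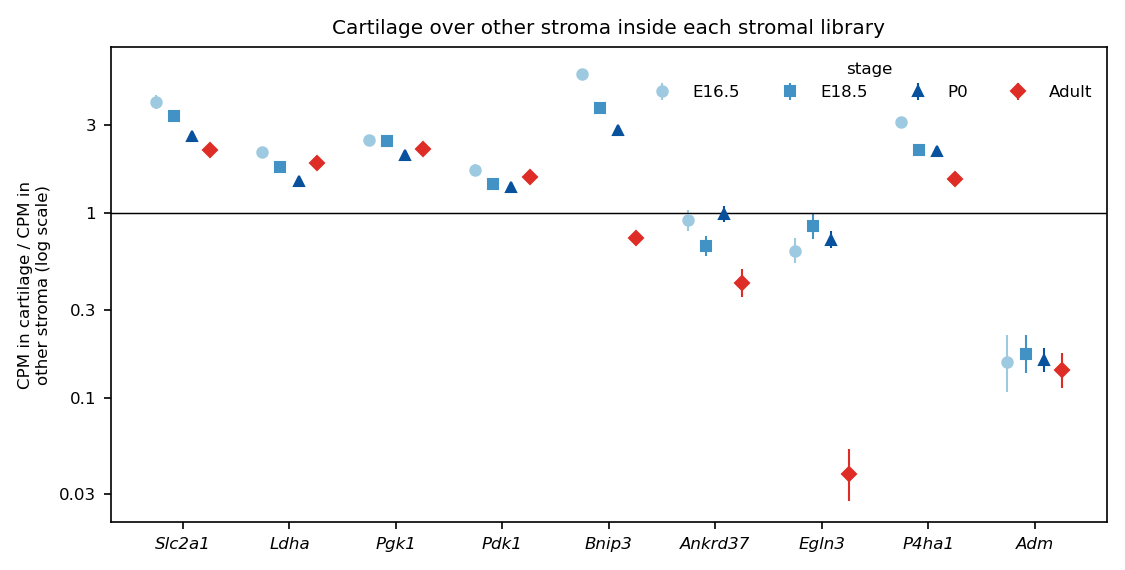
CPM in cartilage divided by CPM in other stroma inside each stromal library on a log axis, 1 point for each gene and stage with exact 95% intervals. The 4 genes of glucose use and P4ha1 lie above 1 at all stages, Adm lies between 0.141 and 0.173, and Bnip3 and Egln3 have adult points of 0.729 and 0.0385.

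Other stroma mixes classes, so cartilage was also set against each class found in at least 3 libraries, in 1 fit of 16687 genes with the library as a block. Against fibroblasts, 6 members were higher in cartilage and 1 lower (17.6% and 17.8% of all genes), the higher ones being Slc2a1, Ldha, Pgk1, Pdk1, Bnip3 and P4ha1 and the lower one Adm. The fibroblast class follows the code letters and included adult code F8, whose paired name is MSCs-PαS. Against pericyte and muscle cells 6 were higher and 1 lower (22.4% and 21.5%), and against Schwann cells 6 were higher and 0 lower (21.6% and 14.5%, edgeR), all 9 log2 fold changes being above 0. Endothelial cells, here perinatal only, differed, with 5 members higher in cartilage and 2 lower (22.9% and 15.1%). The 10 immediate-early and heat shock genes moved with these contrasts by the same edgeR test. In cartilage 9 were higher against fibroblasts, 10 against endothelial cells, 10 against pericyte and muscle cells and 7 against Schwann cells, and 0 were lower. Their part in the member results was not tested.

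The endothelial exception was Slc2a1, which stood at 54.0 to 69.1 CPM in the 3 perinatal endothelial sums against 46.0 to 81.8 CPM in perinatal cartilage, a log2 fold change of 0.47 ± 0.19 that was not called (edgeR adjusted p = 0.071). Fibroblasts had 11.5 to 25.3 CPM and pericyte and muscle cells 8.22 to 21.6 CPM of it. The fibroblast range leaves out adult code F9, which had 96.3 CPM of Slc2a1. Perinatal endothelial cells also had the highest median of Ankrd37 among the classes, with 18.4 to 84.0 CPM (log2 fold change of cartilage -1.95 ± 0.46, edgeR adjusted p = 0.0042). They held Adm at 9.19 to 22.9 CPM (-3.41 ± 0.34, edgeR adjusted p = 2.9e-06). The adult endothelial codes AECs and SECs, of 400 and 194 cells, did not pass the marker check and were left out. Their Adm levels were 37.8 and 35.6 CPM. The Pdk1 call against fibroblasts was lost without the E18.5 or the P0 stroma (edgeR adjusted p = 0.081 and 0.072), and the Adm call against pericyte and muscle cells without the E18.5, P0 or adult stroma (edgeR adjusted p = 0.12, 0.072 and 0.055). The endothelial Ankrd37 call was lost without the E18.5 stroma (-1.44, edgeR adjusted p = 0.12), the library with the highest endothelial value. Schwann cells had Adm at 1.02 to 1.40 CPM, not called against cartilage (0.50 ± 0.54, edgeR adjusted p = 0.52).

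Over single codes of at least 50 cells, of which the stroma held 65, the leading codes differed by gene. P4ha1 had its 8 highest codes all in cartilage, led by E18.5 code C2ii at 645.6 CPM. Pdk1 was highest in the same code at 64.0 CPM, followed by E18.5 C2i at 57.8 CPM and P0 C2ii at 56.6 CPM. Ankrd37 was highest in E18.5 endothelial cells at 84.0 CPM, and Egln3 in adult code F10 at 126 CPM, whose other leading genes were Npy, Slurp1 and Angptl7. Adm was at 43.4 CPM in adult code F8, which has the fibroblast letter and the paired name MSCs-PαS. The adult endothelial codes AECs and SECs had 37.8 and 35.6 CPM. A small undefined P0 code, UD3, topped several genes, with Pgk1 at 2980.4 CPM (2769 to 3203), Ldha at 2344 CPM, Bnip3 at 463 CPM, Slc2a1 at 117 CPM and Adm at 52.4 CPM. Its Slc2a1 rested on 29 UMIs (78.2 to 168 CPM) and its Adm on 13 UMIs (27.9 to 89.5 CPM). For these 2 genes first place was within counting error, with E18.5 C5 at 109 CPM of Slc2a1 and F8 at 43.4 CPM of Adm. UD3 had 129 cells with a median of 1873 UMIs against 13612.5 in its library, and its leading genes were the pigment cell genes Dct, Tyrp1, Mlana and Pmel.

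**Figure D4:**
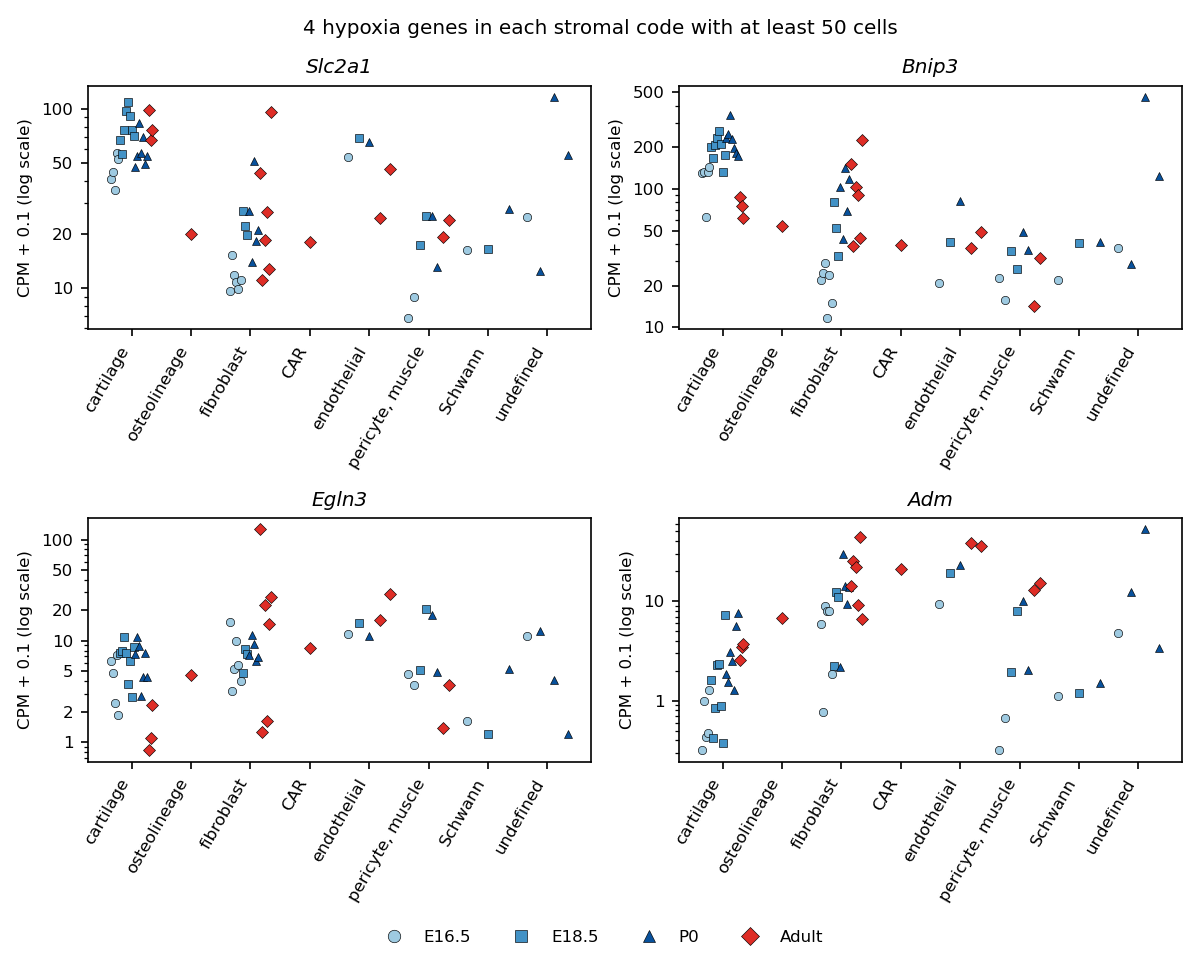
CPM plus 0.1 on a log axis for Slc2a1, Bnip3, Egln3 and Adm in each stromal code with at least 50 cells, grouped by class, 1 point for each code and library. Cartilage codes run from 35.4 to 109 CPM for Slc2a1 and from 0.222 to 7.49 CPM for Adm, and the highest Egln3 point is adult fibroblast code F10 at 126 CPM.

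Cartilage itself was not uniform. Across its 23 codes Slc2a1 ran from 35.4 to 109 CPM, Ldha from 534 to 1432 CPM, Pgk1 from 295 to 1000 CPM, Bnip3 from 61.3 to 342 CPM and Egln3 from 0.726 to 10.9 CPM. In each of the 4 libraries, the code richest in Col10a1, the collagen of hypertrophic cartilage, was also the code with the most Ldha and Pgk1. These were code C5 at E16.5 (Col10a1 984 CPM, Ldha 899.7 CPM, Pgk1 569.8 CPM), C5 at E18.5 (Col10a1 296 CPM, Ldha 1403 CPM, Pgk1 1000 CPM), C5 at P0 (Col10a1 194 CPM, Ldha 921 CPM, Pgk1 685 CPM) and C10 in adults (Col10a1 1459 CPM, Ldha 1432 CPM, Pgk1 485 CPM). The same code had the least Ankrd37 and Egln3 of its library at E16.5, P0 and in adults, and stood next to lowest for both among the 8 cartilage codes of E18.5. Bnip3 was highest there in 3 libraries, and at P0 it was highest in C2ii at 342 CPM. The ranks of the other members varied. Among the cartilage codes of E16.5, E18.5, P0 and adults, which numbered 5, 8, 7 and 3, the code ranked 4, 6, 4 and 3 from the top for Pdk1, 4, 5, 4 and 1 for P4ha1, 2, 1, 3 and 1 for Slc2a1 and 1, 2, 4 and 3 for Adm. These codes were singled out after their values were seen, and the ranks are a description. In the 3 perinatal libraries these codes also had the most UMIs per cell, with medians of 21987.5, 31761 and 25228.5. The part of depth was not tested, and the E18.5 code C5 and the P0 codes C2i and C2ii are paired with osteolineage names in the study's marker lists although their letter is that of cartilage.

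Among the HP libraries the adult one stood lowest for Slc2a1, Ldha, Pgk1, Ankrd37 and Egln3, and not for Pdk1, Bnip3, P4ha1 or Adm. It was also the shallowest library at a median of 6747 UMIs per cell. For Slc2a1 it was the lowest library in every lineage but mast cells, with 3.79 CPM in B cells against 9.95 to 14.4 CPM in the other libraries and 5.14 CPM in hematopoietic stem and progenitor cells (HSPCs) against 18.5 CPM at E18.5 and 16.3 CPM at P0. Mast cells had 23.6 to 30.4 CPM in all 5 libraries, the adult one included, but the adult value rests on 8 UMIs (30.4 CPM, 13.1 to 59.9) in cells with medians of 667 and 798 UMIs. The 2 E16.5 HP libraries differed beyond counting error for Bnip3, 3.28-fold higher in the first (2.75 to 3.90), for P4ha1, 2.05-fold higher (1.82 to 2.30), and for Egln3, 0.539-fold (0.443 to 0.651). They also differed for Slc2a1, 1.30-fold (1.16 to 1.46), Ldha, 1.13-fold (1.11 to 1.15), and Pgk1, 0.712-fold (0.688 to 0.737), whereas the intervals of Pdk1, Ankrd37 and Adm held 1. These ratios include the cells with shared barcodes, without which Ankrd37 stood at 13.9 and 10.1 CPM in the 2 libraries. The first is the library with the largest share of its own cells under shared barcodes, and leaving it out changed no member's call against HP cells. The 2 libraries also differed in make-up. Code Mono/Mast had 161 of the 560 cells of the first, and 303 cells over both. In the first library it held 196 of the 382 P4ha1 UMIs. T and NK cells were numerous enough for a fit in the second library only. The part of make-up in the ratios was not tested.

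Within the HP libraries each lineage was compared with all other HP cells of the same library. Codes that failed the marker check were counted with the other cells, even where their name was that of the lineage. For myeloid progenitors these were E18.5 MyP1 (261 cells), P0 MyP3 (355) and adult MyP4 (701). For HSPCs it was P0 HSPC4 (112), and for monocytes E18.5 Mono1iii (61) and Mono1iv (28). Those contrasts thus set part of a named lineage against the rest of it. Mast cells were the high-lactate-dehydrogenase lineage: Ldha stood at 1711 to 2514 CPM (median 2198) in their 5 sums, the 8 highest of 73 sums of an HP code in a library were all of mast codes, and no other lineage sum exceeded 1192 CPM. In mast cells 2 of 8 tested members were higher and 1 lower (10.1% and 8.47% of 12504 genes): Ldha by 1.64 ± 0.19 (edgeR adjusted p = 0.0026), Slc2a1 by 1.15 ± 0.33 (edgeR adjusted p = 0.047) and Pdk1 at -1.84 ± 0.20 (edgeR adjusted p = 0.0024). The Slc2a1 call was lost in 5 alternatives. Adm passed the filter on low counts in no lineage fit and reached at most 4 UMIs in any HP code.

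The remaining lineages each had few members called. In eosinophils and basophils Bnip3 was higher (1.00 ± 0.21, edgeR adjusted p = 0.016) and Pdk1 lower (-1.19 ± 0.15, edgeR adjusted p = 0.0022), against 8.20% and 8.94% of genes. In HSPCs Pdk1 was higher (0.55 ± 0.13, edgeR adjusted p = 0.042), Egln3 was higher (0.48 ± 0.10, edgeR adjusted p = 0.033) and Ldha lower (-0.57 ± 0.10, edgeR adjusted p = 0.025), against 9.42% and 10.5%. Whichever of the 3 libraries was left out, the HSPC calls of Pdk1 (edgeR adjusted p of 0.062 to 0.12) and Egln3 (0.064 to 0.13) were lost, and that of Ldha was lost without the E18.5 or P0 HPs (0.081 and 0.11). The Pdk1 level of HSPCs was 39.4 to 51.0 CPM, the highest median of the lineages. In myeloid progenitors Pdk1 (0.39 ± 0.10, edgeR adjusted p = 0.042) and Pgk1 (0.42 ± 0.10, edgeR adjusted p = 0.033) were higher and Ankrd37 lower (-1.20 ± 0.26, edgeR adjusted p = 0.030), against 8.02% and 13.2%. The calls of Pdk1 (edgeR adjusted p of 0.056 to 0.19) and Pgk1 (0.067 to 0.12) there were lost without any 1 of the 3 libraries, that of Pdk1 also with no filter on low counts (0.055), and that of Ankrd37 without the adult or E18.5 HPs (0.060 and 0.16). In B cells Ankrd37 was higher (1.35 ± 0.18, edgeR adjusted p = 0.00091) and Egln3 lower (-1.09 ± 0.33, edgeR adjusted p = 0.032), against 20.2% and 21.4%, and the Egln3 call was lost without the adult, E18.5 or P0 HPs (edgeR adjusted p = 0.053, 0.13 and 0.088). In erythroid and megakaryocyte cells Ldha was higher (0.57 ± 0.09, edgeR adjusted p = 0.0077) and P4ha1 lower (-0.89 ± 0.11, edgeR adjusted p = 0.0033), against 23.6% and 25.2%, and the Ldha call was lost without the E18.5 or P0 HPs (edgeR adjusted p = 0.076 and 0.078).

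The immediate-early and heat shock list moved with some of these contrasts by the same edgeR test. Of its 10 genes, 7 were higher and 1 lower in eosinophils and basophils, 6 were lower in myeloid progenitors, 6 in B cells, 4 in erythroid and megakaryocyte cells and 3 in HSPCs, and its part in the member results was not tested.

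No member was called in T and NK cells (2.25% and 4.48% of genes), neutrophils (4.19% and 4.56%) or monocytes and dendritic cells (1.33% and 0.432%) by edgeR. At an unadjusted p under 0.05 the counts were 1, 1 and 2, with Bnip3 lower in T and NK cells (-0.85), Pdk1 lower in neutrophils (-1.43), and Bnip3 (0.82) and P4ha1 (1.11) higher in monocytes and dendritic cells. Over all genes the unadjusted counts were 935 higher and 1758 lower of 13682 in T and NK cells. They were 1141 and 2358 of 12827 in neutrophils, and 1778 and 1528 of 13195 in monocytes and dendritic cells. With 8 members tested, such counts are too few to read as a result. A single E18.5 monocyte code, Mono2, had the highest Bnip3 of all HP codes at 84.0 CPM and the highest P4ha1 at 192 CPM. It had 80 cells, and its leading genes were Sparc, Crybb1, P2ry12 and Siglech.

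**Figure D5:**
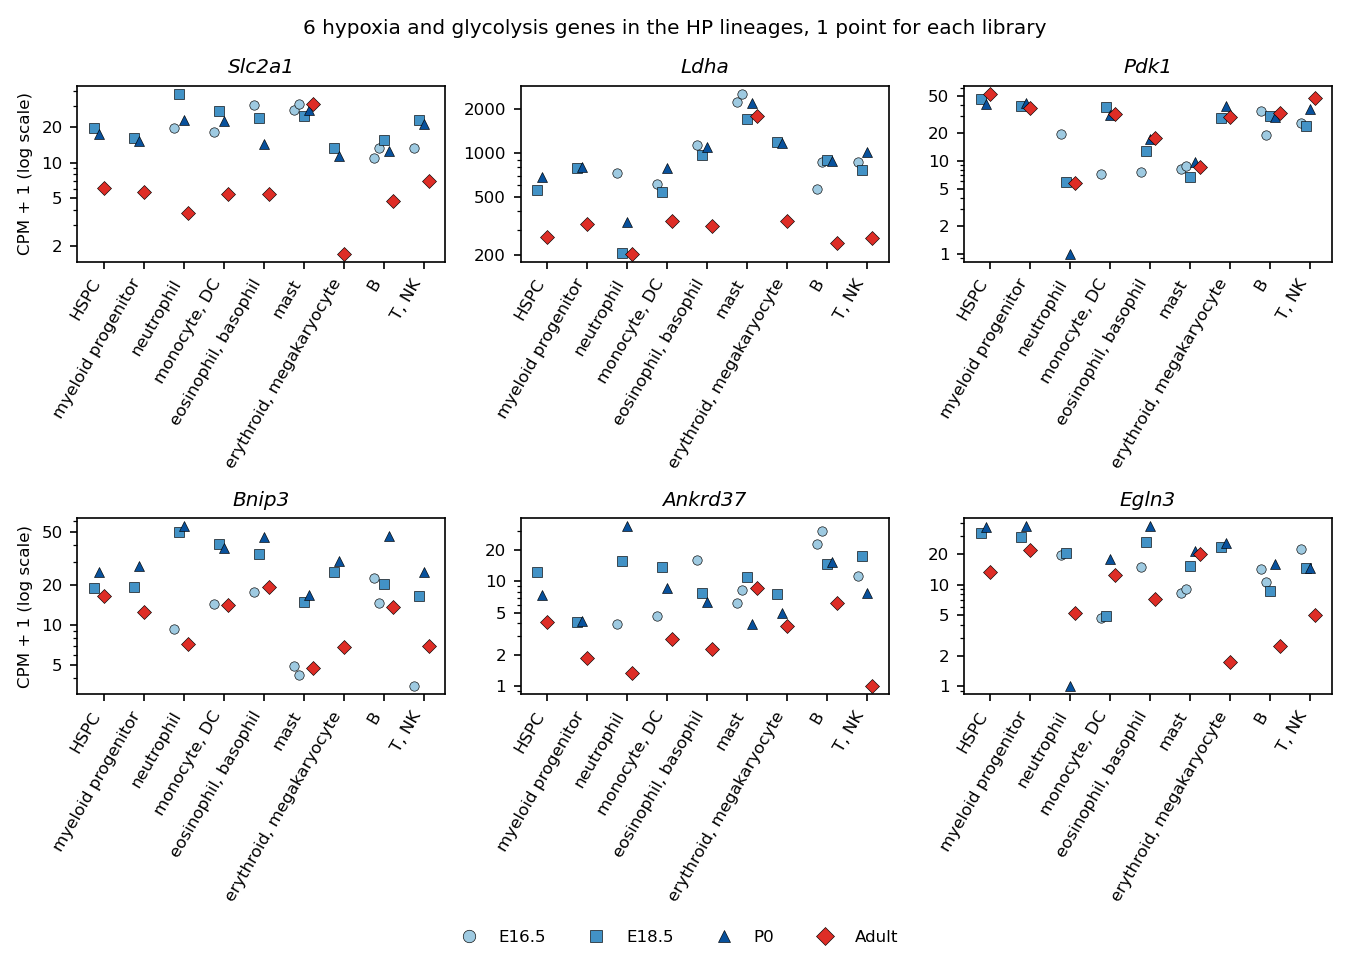
CPM plus 1 on a log axis for 6 genes in the HP lineages, 1 point for each library. Mast cells have the highest Ldha points, from 1711 to 2514 CPM, HSPCs the highest median of Pdk1 at 45.0 CPM, and the adult points of Slc2a1 lie lowest in all lineages but mast cells, whose adult point rests on 8 UMIs.

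The other genes of the pathway were read from lists that were chosen with results of these data known. Their counts between cartilage and other stroma stand beside 20.9% of all genes called higher and 19.1% lower, against HP cells beside 30.6% and 28.8% for cartilage and 29.2% and 25.3% for other stroma, and a gene not called is not shown to be level. Of 15 further glycolysis genes, 13 were higher in cartilage than in other stroma and 0 lower, with a median log2 fold change of 1.01 against 0.05 over all genes. The largest were Aldoc (2.91 ± 0.17, an aldolase, edgeR adjusted p = 0.00091), Hk2 (2.13 ± 0.09, the inducible hexokinase, edgeR adjusted p = 0.00087) and Eno1 (1.57 ± 0.09, an enolase, edgeR adjusted p = 0.00091), and Gapdh was at 0.68 ± 0.12 (edgeR adjusted p = 0.012). Hk1 (0.66, edgeR adjusted p = 0.064) and Eno2 (-0.55, edgeR adjusted p = 0.38) were not called. Against HP cells 7 of the 15 were higher in cartilage and 1 lower, Gpi1 at -1.04 ± 0.19. In other stroma against HP cells edgeR called 0 higher and 3 lower, Gpi1 at -1.41 ± 0.20, Hk1 at -1.87 ± 0.35 and Pgam1 at -0.63 ± 0.22. Pfkm alone was above 0 at an unadjusted edgeR p under 0.05 (0.45), beside 5168 of 16367 genes.

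Of 7 other sugar and lactate transporter genes, 3 were higher in cartilage than in other stroma and 2 lower, too few genes to read a share from. The lactate transporter genes Slc16a1 (1.28 ± 0.12, edgeR adjusted p = 0.0019) and Slc16a3 (1.49 ± 0.44, edgeR adjusted p = 0.046) and the glucose transporter gene Slc2a10 (1.05 ± 0.25, edgeR adjusted p = 0.025) were higher. Slc2a3, which encodes GLUT3, was lower (-0.79 ± 0.18, edgeR adjusted p = 0.025) and stood lower still against HP cells (-3.02 ± 0.25, edgeR adjusted p = 9.1e-05). Of 9 genes of pyruvate entry 2 were higher and 2 lower, near the shares of all genes. Pdk3 moved with Pdk1 (1.03 ± 0.08, edgeR adjusted p = 0.0013), whereas Pdk2 was lower (-0.83 ± 0.14, edgeR adjusted p = 0.010).

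Of 9 genes of the oxygen sensing machinery, Hif1a alone was higher in cartilage than in other stroma (1.22 ± 0.09, edgeR adjusted p = 0.0011), and Arnt2 (-2.45 ± 0.31, edgeR adjusted p = 0.0042) and Hif3a (-1.57 ± 0.38, edgeR adjusted p = 0.028) were lower. The hydroxylase genes Egln1 and Egln2 and the ubiquitin ligase gene Vhl had log2 fold changes of -0.03, -0.19 and -0.01 and were not called. Of 20 further HIF target genes tested, 10 were higher and 1 lower, with a median of 0.79. Car12, a carbonic anhydrase gene, was at 3.34 ± 0.67 (edgeR adjusted p = 0.015), Plod2, a collagen lysyl hydroxylase gene, at 2.28 ± 0.16 (edgeR adjusted p = 0.0011) and Vegfa, the vessel growth factor gene, at 0.91 ± 0.07 (edgeR adjusted p = 0.0012). Lox, which crosslinks collagen and elastin, was the lower one (-3.03 ± 0.50, edgeR adjusted p = 0.0087). Ndrg1 (-0.81, edgeR adjusted p = 0.14) and Kdm3a (-0.25, edgeR adjusted p = 0.29) were not called. Against HP cells 14 of the 20 were higher in cartilage and 1 lower, and in other stroma 10 were higher and 3 lower.

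Among the genes of the adrenomedullin system, Adm2, a related peptide gene, was higher in cartilage (3.71 ± 0.22, edgeR adjusted p = 0.00091), opposite to Adm. The receptor gene Calcrl (-5.17 ± 0.24, edgeR adjusted p = 0.00087) and its partners Ramp3 (-3.24 ± 0.51, edgeR adjusted p = 0.0077) and Ramp1 (-1.46 ± 0.22, edgeR adjusted p = 0.0071) were lower, 3 of 6 genes tested, with Ramp2 at -1.72 ± 0.54 (edgeR adjusted p = 0.058). Among the relatives of the members, 4 of 11 were higher and 2 lower, also too few to read a share from. P4ha2, the second collagen prolyl hydroxylase gene, was at 1.64 ± 0.18 (edgeR adjusted p = 0.0028) and P4hb, the beta subunit gene, at 1.15 ± 0.10 (edgeR adjusted p = 0.0018), whereas Bnip3l, the closest relative of Bnip3, was at 0.13 ± 0.19 (edgeR adjusted p = 0.62).

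Likeness between genes was read as Pearson's r of log2(CPM + 1) over 138 sums of a code in a library with at least 50 cells, among 8819 genes with a mean of at least 10 CPM. It is a description, since the codes share libraries, depth and the clustering. Pgk1 was most like other glycolysis genes, Eno1 (r = 0.86), Tpi1 (0.83) and Pgam1 (0.79), and Ldha was most like Tpi1 (0.78), Adk (0.74) and Aldoa (0.73). Slc2a1 was most like Nfatc2 (0.74), Slc16a3 (0.73) and Hif1a (0.72). P4ha1 followed Loxl3 (0.93), Rrbp1 (0.93) and Pofut2 (0.92), and Bnip3 followed another member, P4ha1 (0.81), then Lats1 (0.77) and Plod3 (0.77). The others had lower values, 0.59 for Pdk1 with Dusp7, Fam120a and Eif2ak4, 0.54 for Egln3 with Sirt3 and Xpc and 0.53 with Dhodh, and 0.52 for Ankrd37 with Snx17 and 0.50 with Pfkl and Bcl2l1. Adm, whose own mean was 4.27 CPM, was most like Ptprg (0.84), Mfap5 (0.84) and Tm4sf1 (0.83).

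How pairs of members went together differed from pair to pair. Over the 65 stromal codes r was 0.81 between Slc2a1 and Bnip3, 0.79 between Slc2a1 and Ldha, 0.79 between Ldha and Bnip3 and 0.77 between Pgk1 and Bnip3. Over the 73 sums of an HP code in a library the same pairs gave -0.05, 0.60, -0.27 and 0.11. The pair Ldha and Pgk1 had values of 0.77 in stroma and 0.70 in HPs. Other pairs had their higher value in HP cells, among them Pgk1 and Egln3 (-0.14 in stroma, 0.61 in HPs), Ldha and Egln3 (-0.13 and 0.35) and Slc2a1 and Ankrd37 (0.26 and 0.50). In stroma Adm had negative values with each of the glycolysis members, down to -0.44 with Pgk1, and Egln3 had its highest member values with Ankrd37 (0.46) and Adm (0.40).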

How the data were processed

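Cells were sorted from bone marrow and sequenced with the Chromium single cell 3′ kit (v3.1), with a CITE-Seq antibody library beside each mRNA library. Per the submitters' processing notes, the authors used Cell Ranger 3.1.0 with the mm10 reference, R 4.0 and Seurat 3.1.5. Cell Ranger's count and aggregate functions were run with default settings, and the default of aggregate evens read depth between libraries before counting, so deposited depths are not sequencing depths. The authors kept genes seen in 30 or more cells and filtered each library for itself, dropping the cells richest in genes or UMIs (the 98th percentile up) as likely doublets, those with a high mitochondrial share and those with few UMIs. The deposited files are one matrix of UMI counts, not normalized, and a second table that holds the stage, compartment and cluster code of every cell. The latter's mitochondrial and ribosomal shares are fractions deposited by the authors. No doublet caller was run here, and cells were used as deposited. The antibody counts were not used.

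Codes were grouped into classes by their letters (C and CF for cartilage). Codes whose leading genes held more listed markers of another class than of their own were left out of contrasts of single stromal classes. This also removed the adult endothelial codes. In the contrasts of HP lineages such codes were instead counted among the other HP cells. UMIs were summed for each library and class. Sums were compared with edgeR 4.0.16 in R 4.3.3 (TMM, filterByExpr, glmQLFit and glmQLFTest, two-sided, Benjamini-Hochberg adjustment over all genes tested, threshold 0.05), with the library as a block for cartilage against other stroma, for stromal classes and for HP lineages, and the stage as a block for comparisons with HP cells. The pairing comes from the design: both sums of a library are cells of the same pool. The p-values measure the spread between stages as well as between pools. Standard errors are the absolute log2 fold change divided by the square root of the F statistic, since the quasi-likelihood test reports none. Classes needed 20 cells in a library and lineages 3 libraries. Levels are CPM of summed UMIs with exact 95% Poisson intervals. Promoter windows and gene positions came from RefSeq (GRCm38.p6). The tests were tested on simulated counts. Python 3.11.15, pandas 2.3.3, numpy 2.4.6, scipy 1.17.1 and matplotlib 3.10.9 were used. Alternatives were other scaling (RLE, library totals), DESeq2 1.42.0, no filter, no block, marker genes left out, shallow cells left out, cells thinned to 1000 UMIs, undefined codes left out, other definitions of cartilage, cells with shared barcodes left out and each library left out.

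Genes were named by a rule: all 9 members, every gene of the lists and, for each member, the 3 genes of highest likeness. Single codes and Col10a1 were singled out after their values were seen. Members, lists and tests were chosen with earlier results of these data known. Ero1a and Pgk2, of the lists, and the marker Snorc were not in the matrix under those symbols.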

Additional observations from a re-analysis of the deposited data

Results flagged for a closer look

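The ratio of Bnip3 in cartilage to Bnip3 in other stroma changed side with stage. It was 5.70 at E16.5, 3.70 at E18.5 and 2.81 at P0, and 0.729 in adults, so that the perinatal libraries all lay on the side of cartilage and the adult library on the side of other stroma. The difference between stages was not tested, since each stage had 1 stromal library. Adult and fetal stroma also differed in the bones taken and in red cell lysis, which cannot be told apart from stage. Adult fibroblast code F9, with Bnip3 at 227 CPM, is part of the adult other stroma, and without it the adult ratio was 1.05 (0.998 to 1.11).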

How the results depend on the processing

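Between cartilage and other stroma, Slc2a1, Ldha, Pgk1, Pdk1, P4ha1 and Adm kept their direction and their call in all 19 alternatives, and Bnip3 kept its call in 12 of 19. Leaving out 1 library at a time gave 1229 to 5266 genes higher and 1498 to 4621 lower, with 5 to 6 members higher and 1 lower. Without the replicate block, here the library, 1712 genes were higher and 1989 lower, with cells thinned to 1000 UMIs 1589 and 1764, and with library totals in place of TMM 1618 and 5335. Members not called changed sign: Ankrd37 was at 0.10 without the adult stroma (-0.31 to 0.10 over the libraries left out), 0.043 with thinned cells, 0.26 and 0.0086 with cartilage taken from a marker share of 1% and of 3%, 0.24 with adult F9 counted as cartilage and 0.17 with cartilage by paired names, and Egln3 was at 0.34 with the share of 1%.

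Between cartilage and HP cells, thinning gave 3178 genes higher, and the count of members lower was 0 with cartilage from a share of 1% or 3%, with F9 counted as cartilage and by paired names. Ldha, not called, was at -0.15 without the adult stroma and -0.15 without the adult HPs (-0.15 to 0.87 over the libraries left out). Slc2a1, Pgk1, Bnip3, P4ha1 and Adm kept their calls in every alternative that gave them a value.

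Between other stroma and HP cells, 1 member was lower without the replicate block, here the stage (Ldha), and 1 with cartilage from a share of 1% (Pgk1), and 0 to 2 with 1 library left out. Genes called lower were 2348 with thinned cells and 2095 to 4261 with 1 library left out. Bnip3 lost its call without the P0 stroma or the P0 HPs (edgeR adjusted p = 0.052 and 0.054), and Ldha and Egln3 were called lower without either adult library. With no filter the median over all genes moved by 0.15 against HP cells for cartilage and by 0.20 for other stroma.

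For single stromal classes, 1 library left out gave 7312 to 15769 gene calls higher and 6733 to 14046 lower over the contrasts, with 2 to 4 member calls lower. For HP lineages it gave 5432 to 11484 higher and 7639 to 13664 lower, with 3 to 9 member calls higher and 3 to 8 lower. The causes were not tested. In the 3 main comparisons the replicate block changed no other member call than those of Ldha above and of Bnip3 between cartilage and other stroma (1.64 without it, edgeR adjusted p = 0.052). Library totals, F9 counted as cartilage, paired names, leaving out CF codes and leaving out shared barcodes were added after seeing the data. Few UMIs stood behind Adm in HP cells (1 to 11 a library) and Egln3 in adult cartilage (41), which limits the precision of their ratios. Each stage had 1 stromal library, and no stage effect was tested in stroma or in HP cells.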
